A study of Mus musculus with 12 samples.

Results

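Class 3 semaphorins are secreted guidance proteins, read by receptors that pair a neuropilin, which binds the ligand, with a plexin, which carries the signal into the cell. Sema3a signals mainly through Nrp1 with class A plexins and Sema3f mainly through Nrp2, while neuropilins also bind VEGF as co-receptors of the VEGF receptors. In the mouse heart the family is best known for outflow tract septation, which depends on Sema3c and Plxnd1, and Plxnd1 and Nrp1 are abundant in endothelium and endocardium.

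The 9 genes described here are the ligands Sema3a, Sema3c, Sema3d and Sema3f, the plexins Plxnd1, Plxna2 and Plxna4, and the neuropilins Nrp1 and Nrp2, taken out of 19057 genes measured. They were chosen by symbol in the platform annotation, which gave 24 probes for them, and the probe of highest mean intensity stood for its gene. The samples were total RNA of mouse embryos, dissected from the atrioventricular canal (AVC), where the endocardial cushions and later the valves form, and from the primary ventricle (labelled LV). There were 4 groups of 3 arrays: AVC E10, AVC E9, LV E10 and LV E9, where E10 and E9 are embryonic day 10 and embryonic day 9. The comparison of AVC with LV asks which genes mark the valve-forming segment around the time that endocardial cells turn into cushion mesenchyme, and the comparison of E10 with E9 asks what changes in each tissue over that step. Neither the labels nor the methods state the strain, the sex, how many embryos were pooled or where the 3 replicates came from. The p-values below therefore measure only how far these samples differ among themselves, part of which may be technical. The tissues were dissected whole, so fewer cells of a type and less RNA per cell cannot be told apart.

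Values are linear intensities, background subtracted and scaled to one mean, and they compare groups for a probe but not probes with each other. A value counted as above background on an array when it exceeded the size of the most negative value there (22.4 to 29.6). The tissue labels were borne out by their markers: the summed intensity of 5 AVC markers ran from 1420 to 3120 on the AVC arrays and from 123 to 491 on the LV arrays. For 3 of the 12 arrays the best correlated array was of another group. Replicate 1 of LV E10 correlated best with replicate 2 of LV E9 (r = 0.969 across 8340 genes, against a mean of 0.933 with its own group), and replicate 2 of AVC E9 and replicate 1 of AVC E10 correlated best with each other (r = 0.979). Results that turn on one of these arrays are given below with and without it.

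On all 12 arrays, 6 of the 9 genes exceeded background, namely Sema3a, Sema3f, Plxnd1, Plxna2, Nrp1 and Nrp2. Sema3c was near the limit, and Sema3d and Plxna4 were above background on none. Among all of them only Sema3f passed the test, in 1 comparison, where it rose in the LV with age. With limma and Benjamini-Hochberg adjustment over all genes (adjusted p under 0.05), 0 of the 9 passed for AVC against LV at E9, where 1.02% of all genes did, 0 at E10, where 2.3% did, 0 for E10 against E9 in the AVC, where 0.551% did, and 1 for E10 against E9 in the LV, where 2.37% did. The interaction, which is the AVC minus LV difference at E10 less that at E9, gave 0 of 9 beside 0.0315% of all genes. At an unadjusted p under 0.05 the counts in these 5 comparisons were 1, 2, 2, 4 and 2 of 9, beside 11.5%, 13.9%, 12.5%, 19.6% and 4.71% of all genes. By the methods' t-test with Benjamini-Hochberg adjustment no gene of the 9 passed in any of the 4 comparisons between groups. That test called only 16, 10, 13 and 26 of all 19057 genes in them, so it says little about the 9.

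The ranges of the 3 arrays of each group did not overlap for 2 of 9 genes in AVC against LV at E9 (17.1% of all genes), 2 at E10 (15.8%), 2 for age in the AVC (16.2%) and 4 for age in the LV (20.4%). Sema3f was in all 4 of these counts, higher each time. Nrp2 was lower in the AVC at E9, Nrp1 was higher in the AVC at E10 and lower with age in the LV, Plxna2 was lower with age in both tissues, and Plxnd1 was higher with age in the LV. The median log2 difference of the 9 genes was 0.39 for AVC against LV at E9 and 0.49 at E10, beside 0.00 and 0.07 over all genes, and 0.35 and 0.00 with age in the AVC and the LV, beside 0.00 in both over all genes. The 0.39 is the value of Plxna4, and the 0.00 in the LV is that of Sema3d at the floor, neither of which was above background. Over the 6 detected members the medians were 0.29, 0.49, 0.27 and -0.17 in these 4 comparisons, beside 0.08, 0.18, -0.01 and -0.10 over the 9931 genes detected in a group.

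**Figure D1:**
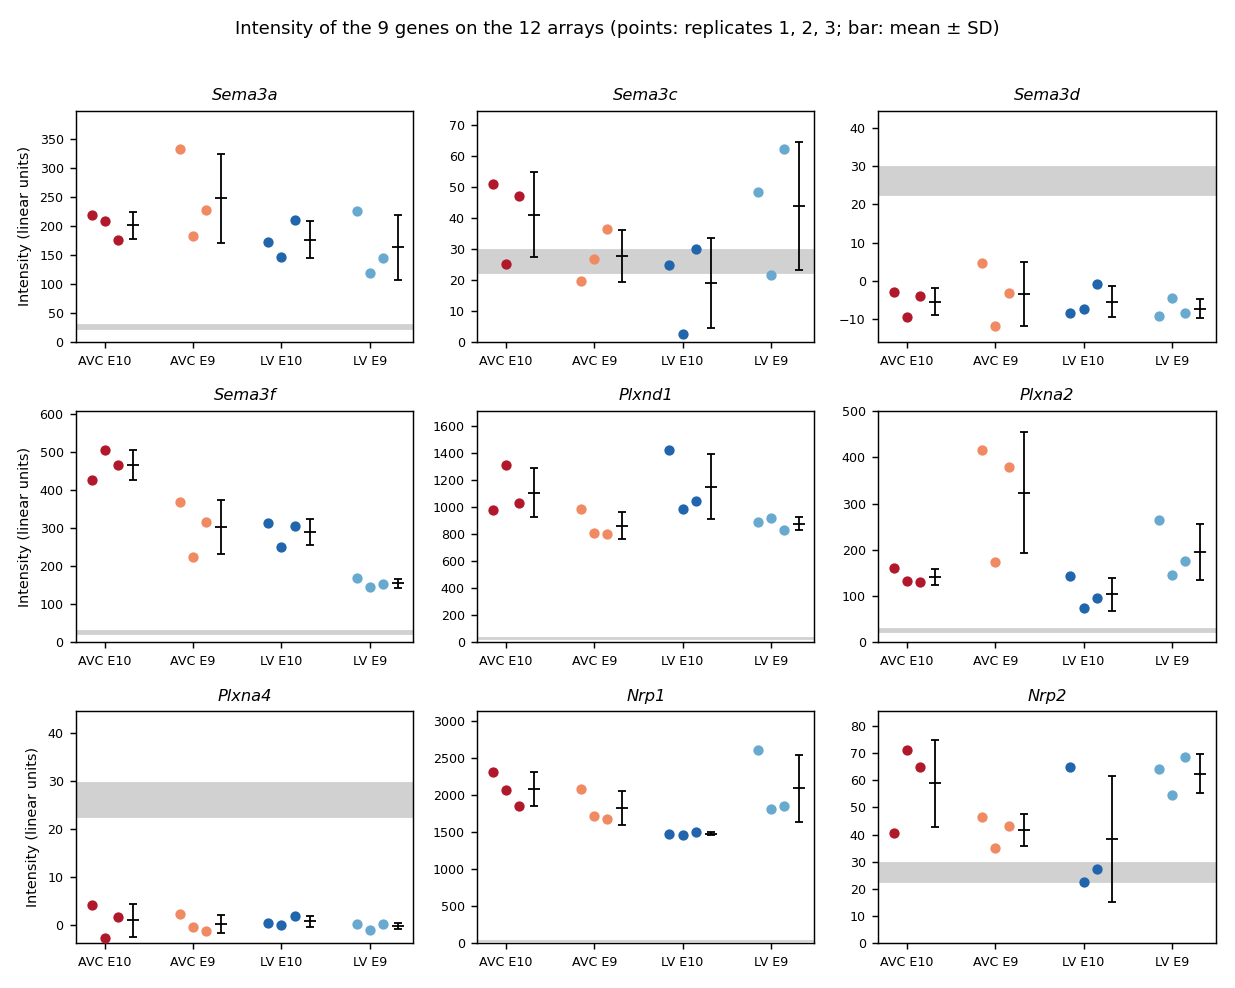
Linear intensity (vertical axes, each on its own scale) of the 9 genes on the arrays of AVC E10, AVC E9, LV E10 and LV E9; points are replicates 1, 2 and 3 from left to right, black bars are the mean ± SD (n = 3) and the grey band is the range of background limits, 22.4 to 29.6. Sema3f is highest on the 3 AVC E10 arrays and lowest on the 3 LV E9 arrays, while all Sema3d and Plxna4 points lie below the band.

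Sema3f, which encodes a repulsive guidance ligand of Nrp2, was the one member whose array ranges lay apart in all 4 comparisons between groups. Its intensity was 426, 506 and 465 on the AVC E10 arrays, 368, 225 and 316 on AVC E9, 314, 251 and 307 on LV E10, and 168, 145 and 153 on LV E9. Every AVC E10 array lay above every array of the other groups, every LV E9 array lay below them, and AVC E9 and LV E10 overlapped. In the LV it rose with age, to 291 ± 34.5 at E10 against 156 ± 11.6 at E9 (SD, n = 3 each), a 1.86-fold difference (log2 difference 0.90 ± 0.17 SE, limma adjusted p = 0.0411). In the AVC it was 465 ± 40.2 at E10 and 303 ± 72.1 at E9 (log2 difference 0.64 ± 0.17 SE, adjusted p = 0.156). The difference between these age effects was -0.25 (95% confidence interval -0.81 to 0.31, adjusted p = 0.937), so an unequal response of the tissues was not shown.

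Between the tissues, Sema3f had a log2 difference of 0.94 ± 0.17 SE for AVC against LV at E9 (1.91-fold, 95% confidence interval 1.45 to 2.52, adjusted p = 0.0506) and 0.68 ± 0.17 SE at E10 (1.61-fold, 1.22 to 2.11, adjusted p = 0.0963). Neither passed the threshold, although all 3 AVC arrays exceeded all 3 LV arrays at each age. Without replicate 2 of AVC E9, the lowest array of its group, both passed, with log2 differences of 1.14 at E9 (adjusted p = 0.0159) and 0.68 at E10 (adjusted p = 0.0287), where the estimate is unchanged and only the variance differs. Without replicate 1 of LV E10 the difference at E9 passed as well (0.94, adjusted p = 0.0478).

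The call in the LV was itself close to the threshold: it held in 11 of 22 alternative settings, where the adjusted p ran from 0.00607 to 0.798 with the difference positive throughout (0.22 to 0.999). Leaving out single arrays ended it for replicates 2 and 3 of AVC E10, replicate 3 of AVC E9, replicates 2 and 3 of LV E10 and each of the LV E9 replicates (adjusted p = 0.058 to 0.137). It held without replicate 1 of LV E10 (0.84, adjusted p = 0.0340).

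**Figure D2:**
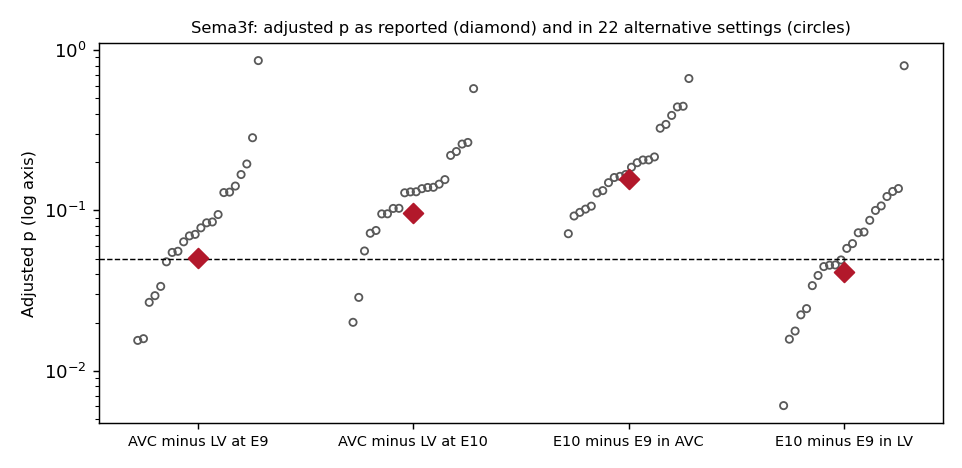
Adjusted p of Sema3f (vertical log axis) in the 4 comparisons between groups, as reported (diamond) and in 22 alternative settings (circles, sorted by value), with the threshold of 0.05 as a dashed line. The circles lie on both sides of the line for age in the LV, where 11 are below it, and all lie above it for age in the AVC.

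A further Sema3f probe gave the same order of groups. It read 295, 352 and 379 on AVC E10, 246, 152 and 248 on AVC E9, 212, 163 and 196 on LV E10, and 129, 120 and 95.1 on LV E9. Its ranges did not overlap in any of the 4 comparisons, and its log2 differences were 0.89 and 0.85 for AVC against LV at E9 and E10, and 0.70 and 0.74 for E10 against E9 in the AVC and the LV. The third Sema3f probe was above background on no array.

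Several marker lists also differed between these groups, not all in the direction of Sema3f. The shares of all genes called were 1.02% for AVC against LV at E9, 2.3% at E10, 0.551% with age in the AVC and 2.37% in the LV. With age in the LV, 2 of 5 markers of epicardium and proepicardium were called higher, with a summed intensity of 2954 to 6679 at E10 and 319 to 921 at E9, and 1 of 8 endocardium and endothelium markers was called higher, with sums of 5148 to 6728 at E10 and 3346 to 3817 at E9. Also called in the LV with age, as lower, were 1 of 8 cushion mesenchyme markers, whose sums overlapped (1159 to 2030 at E10, 1097 to 1589 at E9), and 1 of 6 markers of second heart field and outflow tract, with sums of 247 to 270 at E10 and 308 to 394 at E9. Between the tissues, 3 of 8 cushion mesenchyme markers were called higher in the AVC at E9, with sums of 4388 to 5886 in the AVC and 1097 to 1589 in the LV, and 4 of 8 at E10, with 6662 to 7719 in the AVC and 1159 to 2030 in the LV. Chamber myocardium markers were called lower in the AVC for 1 of 7 genes at E9 and 2 of 7 at E10, with sums of 32025 to 44825 on the AVC arrays and 71860 to 79906 on the LV arrays. At E10, 1 of 7 neural tube and neuron markers was called higher in the AVC, with sums of 103 to 121 in the AVC and 54.8 to 63.6 in the LV. Also called higher there was 1 of 8 endocardium and endothelium markers, whose sums overlapped (4874 to 6278 in the AVC, 5148 to 6728 in the LV). With age in the AVC, 1 of 5 markers of epicardium and proepicardium was called higher, with sums of 4867 to 5462 at E10 and 602 to 855 at E9. Neural crest markers had sums of 884 to 1064 on LV E10 and 533 to 631 on LV E9, with 0 of 7 called. With age in the AVC, 1 of 7 was called higher, with sums of 1106 to 1355 at E10 and 437 to 649 at E9. Most of these sums was Ets1, which the study describes as an endothelial gene. Ets1 was the marker called in the AVC (log2 difference 1.24, adjusted p = 0.0353). It read 798 to 1048 on LV E10 and 510 to 595 on LV E9, and 3 of the 7 markers were above background on no array. The part of these cells in the Sema3f values was not tested.

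Of the other ligands, Sema3a, a repulsive ligand of Nrp1 known from axons and blood vessels, was present in every group and passed in none of the comparisons. It read 219, 209 and 175 on AVC E10, 332, 182 and 228 on AVC E9, 173, 146 and 210 on LV E10, and 226, 120 and 144 on LV E9. All 4 groups overlapped in pairs next to each other in the order AVC E9, AVC E10, LV E10, LV E9. The largest of its differences was AVC against LV at E9, with a log2 difference of 0.61 (95% confidence interval -0.04 to 1.25, adjusted p = 0.481). Its other probe was above background on no array.

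Sema3c, the ligand required for outflow tract septation in the mouse, lay at the edge of detection. It was above background on 2 of 3 AVC E10 arrays, 2 of 3 AVC E9 arrays, 1 of 3 LV E10 arrays and 2 of 3 LV E9 arrays, with intensities of 25.3 to 51.0, 19.8 to 36.5, 2.63 to 30.1 and 21.6 to 62.2 in these groups. No order of groups can be read from values this near to the limit. Sema3d, a ligand with a role in pulmonary vein patterning in the mouse, read -11.8 to 4.62 over the 12 arrays.

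Among the plexins, Plxnd1, the endothelial receptor that the outflow tract requires in the mouse, passed in none of the comparisons. Its intensity was 977, 1313 and 1030 on AVC E10, 983, 810 and 799 on AVC E9, 1425, 989 and 1043 on LV E10, and 889, 920 and 829 on LV E9. The E10 and E9 ranges were apart in the LV and overlapped in the AVC, where replicate 1 of AVC E9 read above replicate 1 of AVC E10. The log2 difference between E10 and E9 was 0.35 in the AVC (adjusted p = 0.431) and 0.37 in the LV (adjusted p = 0.253), and neither passed. Both further probes were also higher at E10, by 0.47 and 0.33 in the AVC and by 0.50 and 0.47 in the LV. Between the tissues the difference was -0.03 at E9 (95% confidence interval -0.40 to 0.34) and -0.05 at E10 (-0.42 to 0.32). The endocardium and endothelium markers, which include genes of the same cells, had sums of 4874 to 6278 on AVC E10 and 2676 to 3870 on AVC E9, and their part in the Plxnd1 values was not tested.

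Plxna2, a class A plexin that forms receptors for Sema3a and Sema3c with neuropilins, read lower at E10 than at E9 on the arrays of both tissues. It read 161, 132 and 131 on AVC E10, 417, 175 and 380 on AVC E9, 144, 73.8 and 95.5 on LV E10, and 264, 147 and 176 on LV E9. The E10 arrays lay below the E9 arrays of the same tissue, and replicate 2 of AVC E9 stood near the E10 values. The other Plxna2 probes were above background on no array, so this order rests on the probe used. The log2 difference of E10 against E9 was -1.10 ± 0.38 SE in the AVC (adjusted p = 0.266) and -0.92 ± 0.38 SE in the LV (adjusted p = 0.233), and neither passed. Leaving out any 1 of the 3 arrays that correlated best with another group did not bring a call. The limma adjusted p was 0.0983 in the AVC and 0.120 in the LV without replicate 2 of AVC E9. It was 0.187 and 0.102 without replicate 1 of LV E10, and 0.266 and 0.271 without replicate 1 of AVC E10. Only with replicate 2 of AVC E9 and replicate 1 of LV E10 both left out did the differences pass, at -1.50 in the AVC (adjusted p = 0.0287) and -1.17 in the LV (adjusted p = 0.0236). That setting was added after the data were seen. Over all 19057 genes it called 1240 in the AVC, not 105, and 3652 in the LV, not 452. Plxna4, a receptor best known in neurons, read -2.76 to 4.08 over the 12 arrays.

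**Figure D3:**
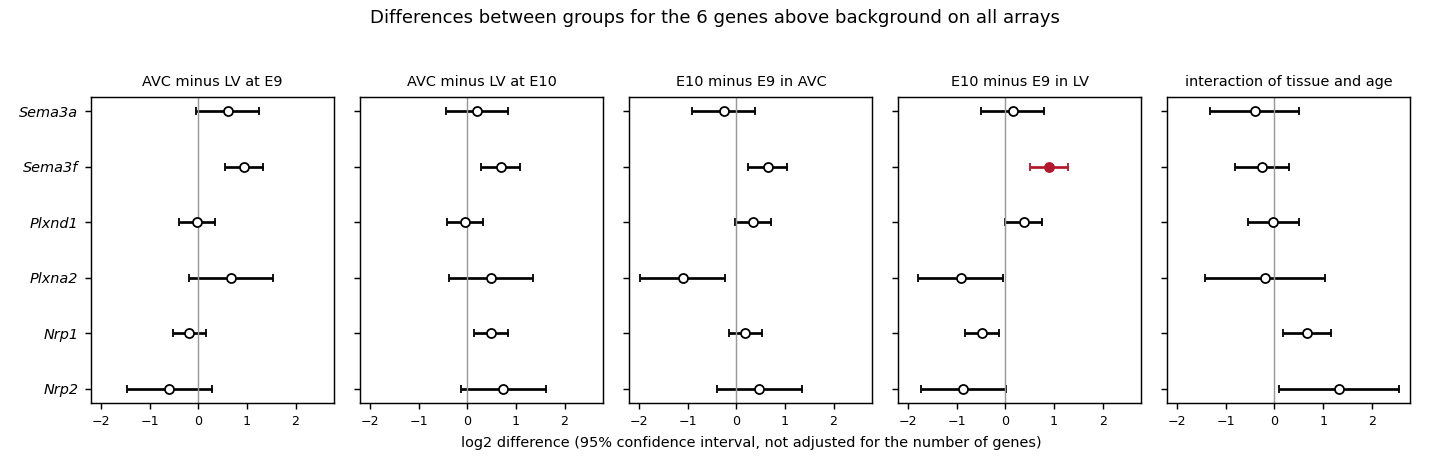
Log2 differences (points) with their confidence intervals (bars, 95%, not adjusted for the number of genes) for the 6 genes above background on all arrays, in the 4 comparisons between groups and the interaction. The filled point, Sema3f with age in the LV at 0.90, is the one that passed at an adjusted p under 0.05; Plxna2 lies below 0 with age in both tissues, and Nrp1 and Nrp2 lie above 0 in the interaction.

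The neuropilins Nrp1 and Nrp2 were the members with an unadjusted p under 0.05 in the interaction, which neither passed after adjustment, and their promoters are shown for that reason. On the probes used, LV E10 was the group of lowest mean for both, as it was for Plxna2. For Nrp2 it overlapped AVC E9 (38.2 ± 23.2 on LV E10, 41.5 ± 5.93 on AVC E9, SD, n = 3 each). On a further Nrp2 probe, above background on 8 of the 12 arrays, LV E10 had the highest mean instead (36.6). The sequences run from 250 bases before to 50 bases after the start site given in the promoter set (GRCm38.p6). For Nrp2 this site is the RefSeq start of the gene. The Nrp1 window begins after the RefSeq start of that gene, 128358591, so the bases before that start are not shown. The Nrp1 promoter is chr8:128358823-128359122 on the + strand and the Nrp2 promoter is chr1:62703067-62703366 on the + strand. Capitals mark matches, on either strand, to the T-box core GGTGTGA, the GATA motif AGATAA or CAGGTG, an E-box bound by Snail factors.
Nrp1 promoter: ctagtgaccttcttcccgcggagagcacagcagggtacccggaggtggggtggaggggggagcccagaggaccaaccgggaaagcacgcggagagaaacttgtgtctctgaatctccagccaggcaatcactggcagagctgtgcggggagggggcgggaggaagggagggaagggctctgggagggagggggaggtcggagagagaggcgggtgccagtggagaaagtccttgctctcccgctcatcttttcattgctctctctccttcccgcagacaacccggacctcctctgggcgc
Nrp2 promoter: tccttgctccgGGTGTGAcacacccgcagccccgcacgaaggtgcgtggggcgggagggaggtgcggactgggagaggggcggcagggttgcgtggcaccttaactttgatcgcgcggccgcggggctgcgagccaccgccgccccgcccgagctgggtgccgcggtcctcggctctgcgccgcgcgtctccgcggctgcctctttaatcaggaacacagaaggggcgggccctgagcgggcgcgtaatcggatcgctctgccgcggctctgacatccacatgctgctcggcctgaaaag
The one match in the pair was GGTGTGA in Nrp2, 239 bases before the start site, and these letters occur in 3.98% of 32851 promoter windows. AGATAA occurs in 11.2% and CAGGTG in 20.2% of them. Of the 7 members with a promoter entry, Nrp2 held GGTGTGA, Sema3d held CAGGTG and none held AGATAA. GC content was 64% for Nrp1 and 70.7% for Nrp2.

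Nrp1, the neuropilin of Sema3a and VEGF, read 2306, 2069 and 1846 on AVC E10, 2084, 1709 and 1678 on AVC E9, 1469, 1457 and 1499 on LV E10, and 2604, 1809 and 1848 on LV E9. The LV E10 arrays lay below all other arrays, within a narrow span, and the other 3 groups overlapped. The log2 difference of E10 against E9 was -0.48 ± 0.15 SE in the LV (adjusted p = 0.130) and 0.19 ± 0.15 SE in the AVC (adjusted p = 0.719). For AVC against LV it was 0.49 ± 0.15 SE at E10 (adjusted p = 0.166) and -0.18 ± 0.15 SE at E9 (adjusted p = 0.763). The interaction was 0.67 (95% confidence interval 0.18 to 1.15, adjusted p = 0.823), so none of these passed. The summed endocardium and endothelium markers were 5148 to 6728 on LV E10 and 3346 to 3817 on LV E9. Within that list Nfatc1, a transcription factor of endocardium, had its lowest mean on LV E10 (544 on AVC E10, 361 on AVC E9, 212 on LV E10 and 257 on LV E9), a marker chosen after its values were seen. Its log2 difference with age in the LV was -0.28, with overlapping ranges. This was the lowest of the 8 markers, whose median was 0.34. Pecam1 of the same list was called higher there, with means of 459 at E10 and 197 at E9. The part of these cells in the Nrp1 values was not tested.

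A further Nrp1 probe read 2211, 1963 and 1679 on AVC E10, 1926, 1417 and 1489 on AVC E9, 1265, 1241 and 1500 on LV E10, and 2271, 1535 and 1536 on LV E9. LV E10 was again lowest on average, below all LV E9 and AVC E10 arrays but overlapping AVC E9. The third Nrp1 probe, annotated to a cDNA clone, read 123, 150 and 109 on AVC E10, 388, 89.2 and 372 on AVC E9, 127, 17.3 and 65.5 on LV E10, and 315, 307 and 235 on LV E9. On this probe E10 lay below E9 in the LV, with a log2 difference of -2.43, and in the AVC too apart from replicate 2 of AVC E9, the same array that stood near the E10 values for Plxna2.

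Nrp2, the neuropilin of Sema3f and VEGF-C, was low but above background on all 12 arrays. It read 40.5, 71.2 and 64.8 on AVC E10, 46.4, 34.9 and 43.2 on AVC E9, 64.9, 22.6 and 27.2 on LV E10, and 64.3, 54.6 and 68.7 on LV E9. At E9 the AVC arrays lay below the LV arrays. At E10 replicate 1 of LV E10 read like LV E9 and the other LV E10 replicates read below every array of the other groups. The log2 difference for AVC against LV was 0.74 at E10 (adjusted p = 0.462) and -0.59 at E9 (adjusted p = 0.675). For E10 against E9 it was 0.47 in the AVC (adjusted p = 0.720) and -0.86 in the LV (adjusted p = 0.260). The interaction was 1.34 (95% confidence interval 0.10 to 2.57, adjusted p = 0.937).

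Replicate 1 of LV E10 decided the Nrp2 calls. Without it, the log2 difference for AVC against LV at E10 was 1.21 (adjusted p = 0.0462). That for E10 against E9 in the LV was -1.33 (adjusted p = 0.0165), and both passed. Over all genes, 730 were then called in the first comparison, not 438, and 2630 in the second, not 452. Passing there was therefore not particular to Nrp2. The LV E10 values left were 22.6 and 27.2, close to the background limits of those arrays (22.4 and 23.6). Of the 5 other Nrp2 probes, 4 were above background on no array and 1 on 8 of 12. That probe was higher at E10 than at E9 in the LV, with a log2 difference of 0.37, the opposite sign to the probe used above, so the direction for Nrp2 depends on the probe.

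**Figure D4:**
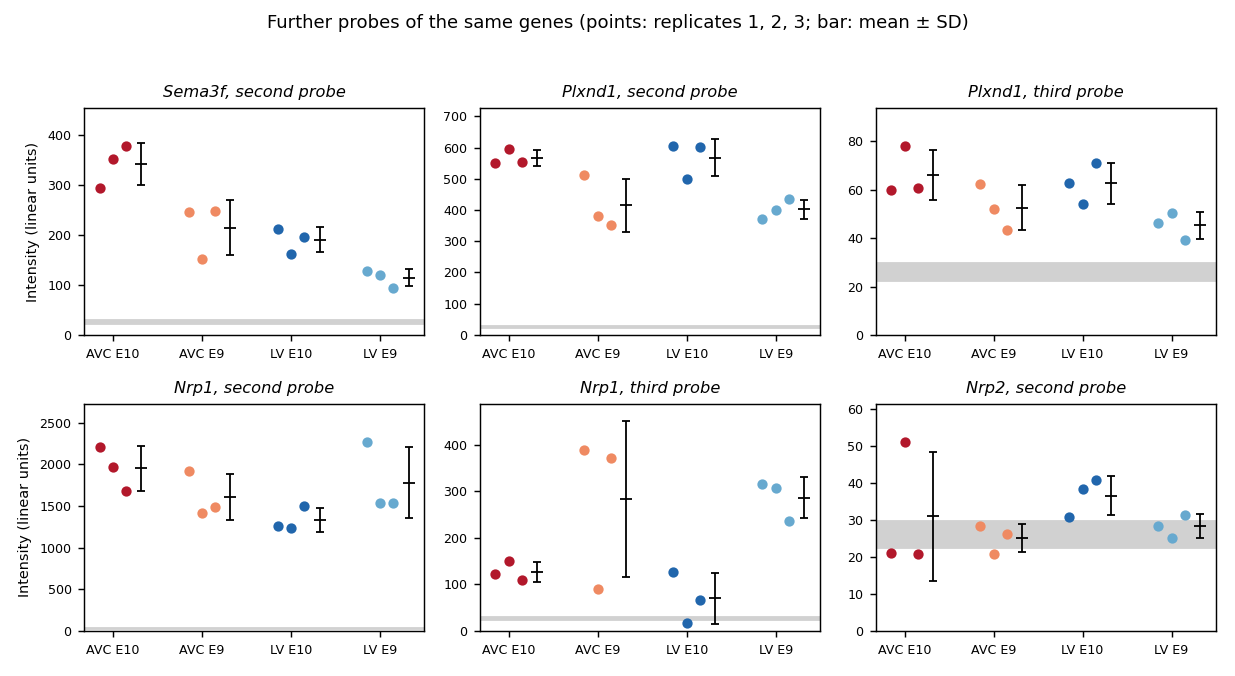
Linear intensity (vertical axes, each on its own scale) of the further probes of the same genes that were above background on at least 8 of 12 arrays, in AVC E10, AVC E9, LV E10 and LV E9; points are replicates 1, 2 and 3 from left to right, black bars are the mean ± SD (n = 3) and the grey band is the range of background limits. The second Sema3f probe repeats the order of groups, with 95.1 to 129 on LV E9 as its lowest group, and the third Nrp1 probe has replicate 2 of AVC E9 at 89.2, near the E10 arrays.

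The wider semaphorin pathway, a list of 55 further genes (other semaphorins, plexins, neuropilin ligands with VEGF receptors, and signalling genes downstream of plexins), was measured for 52, of which 32 exceeded background on every array of 1 or more groups. The test passed for 0 of 52 in AVC against LV at E9, 2 higher at E10, 1 higher with age in the AVC, 1 higher and 1 lower with age in the LV, and 0 in the interaction. The shares of all genes called were 1.02%, 2.3%, 0.551%, 2.37% and 0.0315% in the same order. The median log2 differences in these comparisons were 0.19, 0.42, 0.15, 0.02 and 0.12, beside 0.00, 0.07, 0.00, 0.00 and 0.04 over all genes. Of the 3 other class 3 semaphorins and 2 other class A plexins measured, Sema3e, Sema3g, Plxna1 and Plxna3 were above background on no array, so a difference in them could not be measured, and Sema3b, above background on 10 of 12 arrays, was not called.

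At E10, Mical1, an oxidase that disassembles actin downstream of class A plexins, was called higher in the AVC. It read 381, 351 and 302 on AVC E10 and 139, 166 and 175 on LV E10, with all AVC arrays above all LV arrays (2.16-fold, log2 difference 1.11 ± 0.22 SE, adjusted p = 0.0453). The call held in 8 of 22 alternative settings (adjusted p = 0.0115 to 0.219), was lost with quantile normalization (0.90, adjusted p = 0.219), and among single arrays survived only the omission of replicate 2 or replicate 3 of AVC E9. Sema7a, a membrane-anchored semaphorin that acts through Plxnc1 and integrins, was also called higher in the AVC at E10, where it read 38.0, 16.1 and 33.0, of which 2 were above background. Its 3 LV E10 arrays (-0.23 to 3.57) were not above background, so it was at least 1.09-fold higher, a bound set against the lowest detectable signal on those arrays (adjusted p = 0.0192). This call held in 16 of 22 settings (adjusted p = 0.0111 to 0.444) and ended without replicate 1 or without replicate 3 of AVC E10. At E9 Sema7a was not called, although it read 41.6, 43.7 and 85.6 on the AVC arrays and 8.30 to 13.7 on the LV arrays. The difference was therefore not confined to E10.

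With age in the AVC, Sema4a, a transmembrane semaphorin that binds class B and D plexins, was called higher. It read 103, 116 and 106 on AVC E10 and 45.8, 51.6 and 66.7 on AVC E9, with no overlap (1.997-fold, log2 difference 0.998 ± 0.15 SE, adjusted p = 0.0397). The call held in 10 of 22 settings (adjusted p = 0.0243 to 0.282), was lost with quantile normalization (0.95, adjusted p = 0.0630), and among single arrays survived only the omission of replicate 1 of AVC E10, replicate 3 of AVC E9, replicate 1 of LV E10 or replicate 1 of LV E9. On the LV arrays it read 83.2 to 96.5 at E10 and 69.1 to 93.0 at E9, which overlapped.

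With age in the LV, Vegfc, the ligand of VEGF receptor Flt4 that also binds Nrp2, rose alongside Sema3f. It read 230, 383 and 426 on LV E10 and 129, 137 and 114 on LV E9, with no overlap (2.65-fold, log2 difference 1.41 ± 0.24 SE, adjusted p = 0.0334). The call held in 12 of 22 settings (adjusted p = 0.00262 to 0.202), and among single arrays survived only the omission of replicate 1 or 2 of AVC E10, replicate 2 of AVC E9 or replicate 1 of LV E10. In the AVC its log2 difference was 1.01 ± 0.24 SE, with 390, 594 and 570 on AVC E10 and 278, 228 and 256 on AVC E9 (adjusted p = 0.120). Rap1b, a Rap GTPase of the kind that plexins switch off, fell with age in the LV, with 4631, 4166 and 3730 on LV E10 and 5122, 5453 and 5351 on LV E9 (log2 difference -0.35 ± 0.07 SE, adjusted p = 0.0463). The Rap1b call held in 4 of 22 settings (adjusted p = 0.00534 to 0.263), was lost with quantile normalization (-0.35, adjusted p = 0.104), and among single arrays survived only the omission of replicate 1 of LV E10.

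The genes most like Sema3f across the 12 arrays, by the root mean square difference of centred log2 values among 9930 genes that exceeded background throughout 1 or more groups, were Epb41l1 (0.19), Zfp579 (0.19) and Fchsd1 (0.21). Each had its highest mean in AVC E10 and its lowest in LV E9. The genes were chosen for closeness to Sema3f on these same arrays, so this order and the calls below are not independent of it. The means of Epb41l1 were 204 on AVC E10, 130 on AVC E9, 118 on LV E10 and 76.6 on LV E9. Fchsd1, which encodes an F-BAR and SH3 domain protein, was called higher in the AVC at E9 (log2 difference 0.81, adjusted p = 0.0398) and at E10 (0.75, adjusted p = 0.0378), and Epb41l1 and Zfp579 were called in none of the 5 comparisons.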

How the data were processed

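Total RNA of AVC and LV at E10 and E9 (3 arrays a group) was labelled with biotin and profiled on Illumina Mouse WG-6 v2 BeadChips. The values deposited by the authors are intensities on a linear scale, background subtracted (34.7% below 0) and scaled to one mean of 386 per array, but not quantile normalized; neither the program that made them nor which samples shared a chip is stated. The number of arrays limits the precision.

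Probes were named through the platform annotation (34885 of 45281 probes with 1 symbol). All 9 members were found in RefSeq by gene identifier. Values under 1 were set to 1 before log2 (36.8% of values). Per array, 36.7% to 41.0% of probes exceeded the background limit. Group means were fitted over all probes with limma 3.58.1 (R 4.3.3, statmod 1.5.0, package data.table, version 1.17.8) in 5 contrasts, with two-sided p-values adjusted by Benjamini-Hochberg over 19057 genes. Folds are between geometric means, group intensities are arithmetic means with SD. The fit was checked on simulated data with known differences. All members were named, other pathway genes where called, and the 3 genes most like each called member. The members and gene lists were chosen with earlier results of these data known. Alternatives were another normalization, floor, offset, filter, variance model, replicate block, probe rule and test, and leaving out each array; leaving out replicate 2 of AVC E9 and replicate 1 of LV E10 together was added after seeing the data. Figures were drawn with matplotlib 3.10.9.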

Additional observations from a re-analysis of the deposited data

How the results depend on the processing

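No result changed sign in a called value. Among the 9 genes, the count called for AVC against LV at E9 was 1 (Sema3f), not 0, with quantile normalization, with an offset of 32 and with only genes above background in a group tested. The count for E10 against E9 in the LV was 0, not 1, with only the groups of the contrast fitted, with the mean over the probes of a gene (which takes in the Sema3f probe that was never above background), and with the methods' t-test, adjusted or at the study's thresholds. Leaving out arrays gave 0 to 1 calls for AVC against LV at E9 and 0 to 2 at E10. For age it gave 0 to 1 in the AVC and 0 to 3 in the LV. These highest counts were reached when replicate 2 of AVC E9 and replicate 1 of LV E10 were left out together. In that setting 1604 of 19057 genes were called for AVC against LV at E10, not 438. With age, 1240 were called in the AVC, not 105, and 3652 in the LV, not 452. The calls thus rose over all genes, and the cause was not tested.

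Of the other pathway genes, testing only genes above background in a group left 32. It gave 2 calls, not 0, for AVC against LV at E9, 5, not 2, at E10 and 4, not 2, with age in the LV. The calls over all genes rose too, to 303, 618 and 965 of 9931, from 195, 438 and 452 of 19057. Quantile normalization gave 1 at E10 (Mical1 lost) and 0, not 1, with age in the AVC (Sema4a lost), and with age in the LV the count stayed at 2 with Rap1b lost and Arhgef12 called. With the replicate block the member counts were 0, 0, 0, 1 and 0, as without it. Neither the labels nor the methods say that a number marks a shared batch, and 9 of 18 same-numbered pairs had deviations correlated above 0.1 (-0.37 to 0.52), so the numbers were not taken to pair the samples. By these deviations, 8 of the 12 arrays correlated best with an array of their own number. Whether handling was shared was not tested, and the design does not state it.

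Over all genes, 195, 438, 105, 452 and 6 were called in the 5 comparisons. The alternative settings gave 16 to 348, 10 to 618, 13 to 497, 26 to 965 and 0 to 8, and leaving out arrays gave 59 to 422, 97 to 1604, 25 to 1240, 54 to 3652 and 10 to 67. The largest shift of the median of all genes under a setting was 0.18 on the log2 scale, for AVC against LV at E10. Values near the background limit, Sema3c and Nrp2 among them, bound what these arrays can show.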
